A study of Danio rerio with 6 samples.

Results

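ATP-binding cassette (ABC) transporters are membrane proteins that use ATP to move lipids, bile salts, drugs, peptides and metabolites across membranes, and they are grouped into subfamilies by letter. In the liver of vertebrates they load cholesterol onto lipoproteins, drive bile flow at the canalicular membrane and export conjugated foreign compounds. Members in peroxisomes and mitochondria carry fatty acyl chains and metal or haem precursors, and the ABCE and ABCF proteins have no membrane span and act on ribosomes.

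The ABC genes described here are all genes whose deposited symbol starts with abc, a letter from a to g and a digit, which gave 50 of the 36191 gene IDs in the tables. They comprise 8 ABCA, 11 ABCB, 13 ABCC, 4 ABCD, 1 ABCE, 4 ABCF and 9 ABCG genes. RNA was sequenced from tissue labelled liver of wild-type AB zebrafish aged 3 months, a laboratory strain of Danio rerio. There were 3 libraries from fish treated with graphene oxide nanoparticles (GO), a sheet-like carbon material, and 3 from control fish, and the study, by its title, asked about hepatic dysfunction and innate immunity. The labels used here give no dose, exposure time or number of fish behind a library, so the spread that the p-values rest on may be technical. Total expected counts were 9739760 to 12998273 per library.

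The tissue label was checked against marker genes, because it sets what the ABC values can describe. Summed over 19 hepatocyte marker genes, the level was 246, 240 and 13650 CPM (counts per 1000000 counts after TMM scaling) in GO replicates 1, 2 and 3, against 821, 821 and 12290 CPM in control. Skeletal muscle markers (19 genes) lay at 67350 to 104000 CPM, epidermis markers (16) at 13490 to 20850 CPM, retina markers (17) at 3826 to 6229 CPM and brain markers (14) at 2253 to 4061 CPM. Intestine markers (13) reached 2665 CPM in GO replicate 3 and 2194 CPM in control replicate 3, with 80.8 to 213 CPM in the other libraries. Exocrine pancreas markers (11) reached 2765 CPM in GO replicate 3 and 2634 CPM in control replicate 3, with 5.06 to 7.18 CPM in the others. No marker found in the tables was at 0 in all 6 libraries. Hepatocyte markers were thus below skeletal muscle markers in all 6 libraries, and below epidermis, retina and brain markers in all 4 libraries of replicates 1 and 2, which goes against the liver label. Both replicate 3 libraries stood apart from replicates 1 and 2, and results are given with and without them. In such bulk samples, fewer cells of a type and less RNA per cell cannot be told apart.

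ABC transcripts took a small share of each library. The 50 genes held 0.194% (95% Wilson interval 0.192% to 0.197%), 0.193% (0.191% to 0.196%) and 0.287% (0.284% to 0.290%) of the counts in GO replicates 1, 2 and 3. In control they held 0.171% (0.169% to 0.174%), 0.170% (0.168% to 0.172%) and 0.249% (0.246% to 0.252%). The share was highest in replicate 3 of both groups, and in each numbered pair it was higher in GO.

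**Figure D1:**
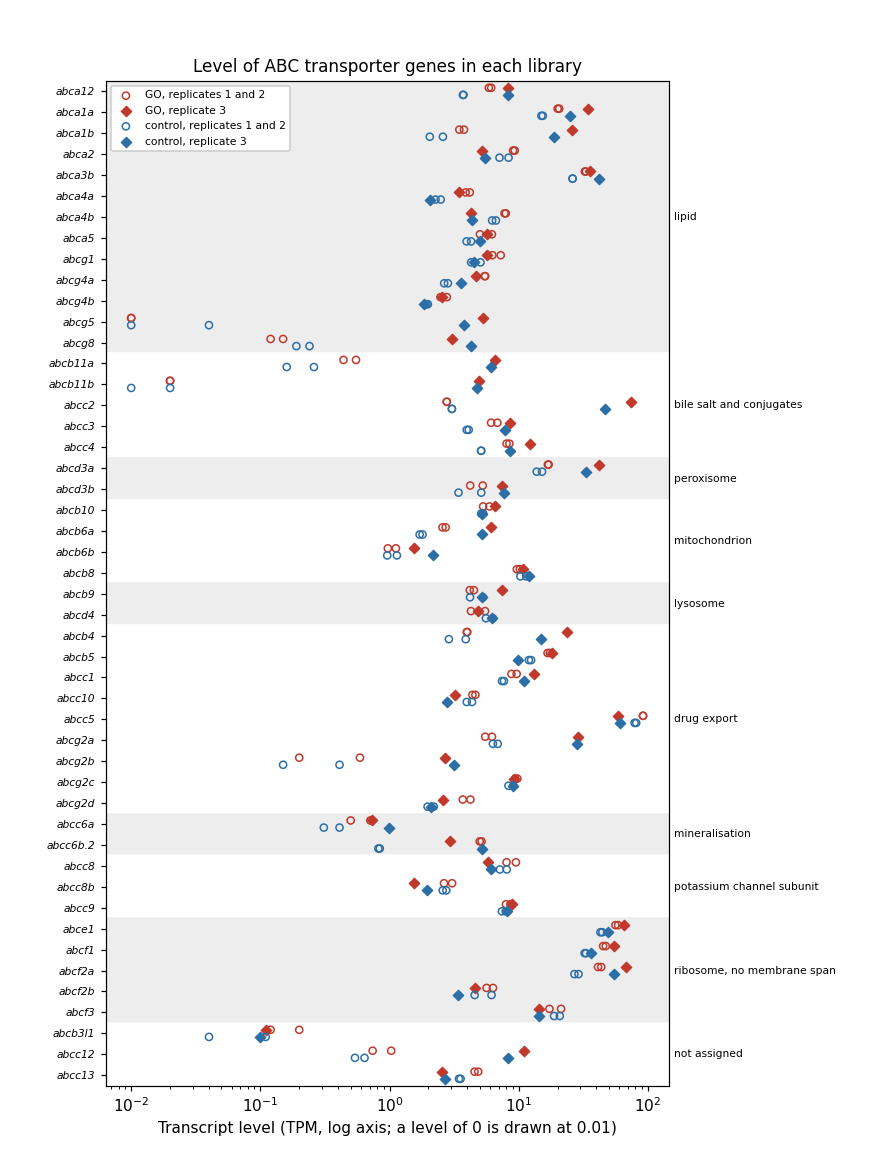
Transcript level of the ABC genes reported here in TPM on a log axis, grouped by cargo or site; open circles are replicates 1 and 2, filled diamonds replicate 3, with GO in red above control in blue for each gene. The genes with the highest means, abcc5, abce1, abcf2a and abcf1, lie at the right. The genes abcb11b, abcg5 and abcg8 are near 0 outside the replicate 3 libraries.

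Levels were compared between genes in TPM, which is scaled for transcript length. The highest mean over the 6 libraries was that of abcc5, an exporter of cyclic nucleotides and conjugates, at 91.6, 92.0 and 58.8 TPM in GO replicates 1, 2 and 3 and 81.2, 78.9 and 60.9 TPM in control. Next came the ribosome recycling factor gene abce1 with a mean of 52.8 TPM, and the ABCF genes abcf2a with 43.9 TPM and abcf1 with 41.4 TPM. The lipid transporter gene abca3b followed with 32.5 TPM and the peroxisomal abcd3a with 23.0 TPM. In all, 8 of the 50 genes averaged above 20 TPM and 8 averaged under 2 TPM. In the order of levels the means of abcf2a and abcf1 are neighbours whose ranges over libraries overlap, 26.99 to 67.9 TPM for abcf2a and 32.4 to 54.2 TPM for abcf1. Across all genes tested the median log2(TPM + 1) was 0.18 higher in GO than in control among replicates 1 and 2, so libraries are compared below in TMM-scaled CPM and not in TPM.

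By subfamily, ABCC had the highest summed level in every library, at 155, 153 and 203 TPM in GO and 129, 126 and 171 TPM in control. The 4 ABCF genes summed to 118, 109 and 141 TPM in GO and 84.3, 87.6 and 109 TPM in control, and the 8 ABCA genes to 89.1, 89.7 and 123 TPM against 68.4, 67.6 and 111 TPM. ABCB summed to 62.0, 62.4 and 107 TPM in GO and 54.1, 52.5 and 88.3 TPM in control. ABCG and ABCD were lower, at 26.9 to 64.3 TPM and 23.2 to 56.4 TPM over the libraries. These sums also carry a difference in TPM scale between the groups. The shift of 0.18 given above is that of replicates 1 and 2, and over all 6 libraries it was 0.13.

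Many reads of these genes were divided between rows, and for most of them the division was within 1 gene. Of the 50 genes, 10 stood on 2 or 3 rows each, 23 rows in all, each set with 1 gene ID. The reads of abcc10, an exporter of conjugates, were divided equally over its 3 rows, and in the bile transporter gene abcc2 the larger of 2 rows held 58.1% to 83.3% of the reads. Summed by gene ID, all 10 were whole in every library within a tolerance of 0.02 counts, and only these sums are used below.

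For 4 genes the total itself was not whole, as happens where a counting program divides a read between genes. Among the 3518 genes with such totals, exactly 1 other gene completed each of the 4 to a whole number in every library. The totals of abcc1 and abcc6b.2, both ABC genes, completed each other, and they summed to 762, 836 and 888 counts in GO replicates 1, 2 and 3 and to 454, 596 and 957 in control. In the reference gene table these genes are near neighbours with 2 genes between them. The partner of abcg2c was the prosaposin gene psap, and that of abcb11a was LOC101883977. The values of abcc1, abcc6b.2, abcg2c and abcb11a are therefore uncertain. The neighbouring genes abcg5 and abcg8, whose products join into 1 sterol exporter, had whole totals.

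Of the ABC genes of bile and sterol excretion, abcb11b, abcg5 and abcg8 were close to absent outside the replicate 3 libraries, and abcb11a was low there. The bile salt export pump gene abcb11b had 1, 1 and 258 counts in GO replicates 1, 2 and 3, against 1, 0 and 275 counts in control. Its paralog abcb11a was at 2.14, 1.73 and 27.02 CPM in GO and 0.739, 1.19 and 26.2 CPM in control. The sterol exporter gene abcg5 had 0, 0 and 90 counts in GO, against 0, 1 and 71 in control. Its counts of 0 allow up to 0.279, 0.238 and 0.308 CPM before TMM scaling, in GO replicates 1 and 2 and control replicate 1. Its partner abcg8 was at 0.276, 0.236 and 6.12 CPM in GO and 0.422, 0.395 and 7.45 CPM in control. For each of these 4 genes both replicate 3 libraries were higher than all 4 others, which by itself makes the GO and control ranges overlap. Among replicates 1 and 2 alone GO lay above control for abcb11a and below it for abcg8, and neither gene passed the threshold there.

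The conjugate exporter gene abcc2, which in mammals works at the bile canaliculus, showed the same split at a higher level. It was at 10.7, 10.7 and 298 CPM in GO and 13.5, 13.7 and 193 CPM in control, 27.9 times higher in GO replicate 3 than in the mean of GO replicates 1 and 2 and 14.2 times higher in control replicate 3. The cholesterol exporter gene abca1b was at 23.1, 25.3 and 181 CPM in GO and 15.8, 20.2 and 135 CPM in control, 7.47 and 7.48 times higher in replicate 3. Its paralog abca1a was only 1.79 times higher in GO replicate 3 and 1.54 times in control replicate 3, at 161, 158 and 285 CPM in GO and 139, 138 and 213 CPM in control. The replicate 3 ratios of the abca1 paralogs thus differed, as a description with no test.

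The drug exporter gene abcb4 was at 14.1, 13.04 and 85.1 CPM in GO and 16.1, 12.01 and 55.7 CPM in control. In zebrafish Abcb4 exports foreign compounds, the role that P-glycoprotein has in mammals. The gene abcc12 was 13.1 and 13.04 times higher in replicate 3 of GO and control, and abcg2a, a relative of the mammalian breast cancer resistance protein, 5.13 and 4.18 times. Of the ABC genes tested, 10 of 48 (20.8%) were at least 4 times higher in replicate 3 than in the mean of replicates 1 and 2 in both groups, where the share among all 19313 genes tested was 4.02%. Among them were abca1b, abcb11a, abcb11b, abcc2, abcc12, abcg2a, abcg2b, abcg5 and abcg8. The filter on low values let 7 of them pass through the replicate 3 libraries alone, so their count is no support for a property of the family. The replicate 3 libraries also held the highest hepatocyte, intestine and exocrine pancreas marker levels given above, and the part of these tissues in the ABC levels was not tested.

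Other ABC genes were lower in replicate 3. The photoreceptor retinoid transporter gene abca4b was at 47.6, 47.0 and 26.9 CPM in GO and 43.3, 46.9 and 28.4 CPM in control, beside retina markers at 5000, 4972 and 3826 CPM in GO and 6211, 6229 and 4556 CPM in control. The lysosomal lipid transporter gene abca2 was at 75.3, 73.9 and 44.2 CPM in GO and 78.2, 67.4 and 47.9 CPM in control, beside brain markers at 3713, 3787 and 2253 CPM in GO and 4061, 4046 and 2318 CPM in control. The gene abcc5 had replicate 3 ratios of 0.671 in GO and 0.706 in control. Skeletal muscle markers were lower in replicate 3 too, at 90730, 90920 and 70400 CPM in GO and 103500, 104000 and 67350 CPM in control. The other retinal gene, abca4a, had replicate 3 ratios of 0.903 in GO and 0.795 in control. Whether any of these tissues supplied the transcripts was not tested.

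**Figure D2:**
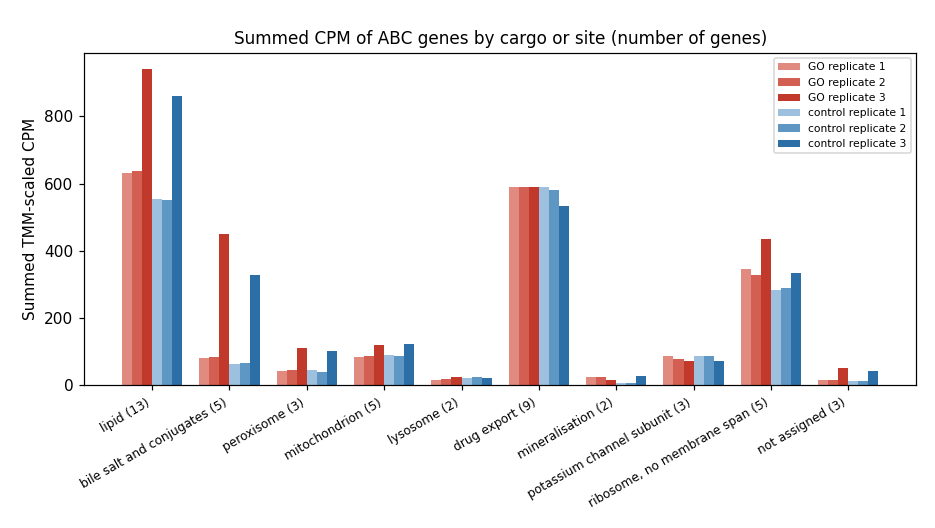
Summed TMM-scaled CPM of the ABC genes of each cargo or site in the 6 libraries, GO libraries in red and control libraries in blue; CPM is not scaled for length, so bars compare libraries within a group of genes. The bile salt group stands at 451 and 329 CPM in GO and control replicate 3 and at 65.1 to 84.4 CPM in the other libraries.

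Over all 6 libraries GO and control were compared by a test across all genes, and no ABC gene passed the threshold. edgeR's quasi-likelihood test called 0 of 48 ABC genes and 0 of all 19313 genes (0%) at an adjusted p under 0.05, and the smallest adjusted p of an ABC gene was 0.99988. At an unadjusted p under 0.05 it gave 5 of the 48, where the share among all genes was 2.27%. This fit has no term for replicate, so the split between replicate 3 and the others counts as spread within each group. A lack of calls in it is therefore no evidence that the genes were unchanged. With a replicate block edgeR called 0 ABC genes too, with a smallest adjusted p of 0.218. DESeq2 and limma called 0 ABC genes as well. The median log2 fold change of the 48 genes was 0.11, beside 0.00 for all genes tested. Of the 48, 31 were above 0 and 17 below, beside 9627 above and 9686 below among all genes. The 48 include 8 that passed the filter on low values through the replicate 3 libraries alone, such as abcb11b at 0.01 ± 2.41. Without GO replicate 3 the median was -0.06 and without control replicate 3 it was 0.30. Each of these fits has a replicate 3 library in 1 group only, and the cause of the shift was not tested.

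For 7 of the 48 ABC genes all GO libraries lay above all control libraries, 14.6% beside 3.66% of all genes tested, and for 2 of them all lay below, 4.17% beside 4.09%. The 7 were abca4a, abcb5, abce1, abcf1, abcg1, abcg4a and abcg4b, and the 2 were abcb8 and abcd4. The sterol exporter gene abcg4a, known from the brain of mammals, was at 10.1, 10.3 and 9.22 CPM in GO, against 5.70, 6.16 and 7.12 CPM in control. Its log2 fold change of 0.64 ± 0.17 (SE, n = 3 each) had an unadjusted p of 0.00914 from edgeR. The related gene abcg4b was at 5.15, 5.81 and 5.57 CPM in GO and 4.64, 4.82 and 4.15 CPM in control. The gene abcg1, which in mammals moves cholesterol to high-density lipoprotein, was at 15.6, 18.3 and 15.1 CPM in GO and 14.7, 12.6 and 12.2 CPM in control. In all 3 of these ABCG genes the lowest GO library was above the highest control library.

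The translation factor gene abcf1 was at 122, 117 and 147 CPM in GO and 96.6, 100 and 102 CPM in control, a log2 fold change of 0.37 ± 0.13. The gene abce1 was at 121, 117 and 142 CPM in GO and 106, 104 and 110 CPM in control. The gene abcb5, of the same subfamily as P-glycoprotein, was at 72.6, 70.3 and 79.1 CPM in GO and 60.3, 58.7 and 44.5 CPM in control, a log2 fold change of 0.44 ± 0.15. In these 3 genes the highest GO library was replicate 3. The retinal gene abca4a was low, at 3.86, 3.61 and 3.38 CPM in GO and 2.43, 2.69 and 2.03 CPM in control, and rested on 23 to 46 counts a library. The effective length implied by its counts and FPKM was 1099 bases, beside 7152 for abca4b, and CPM is not scaled for length.

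In the other direction, the mitochondrial transporter gene abcb8 was at 18.7, 19.9 and 21.8 CPM in GO and 25.7, 23.3 and 25.2 CPM in control, a log2 fold change of -0.30 ± 0.13. The gene abcd4, whose product helps vitamin B12 leave the lysosome, was at 8.003, 10.4 and 9.22 CPM in GO and 13.5, 12.3 and 11.9 CPM in control, a log2 fold change of -0.45 ± 0.16. The groups did not overlap for either gene.

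**Figure D3:**
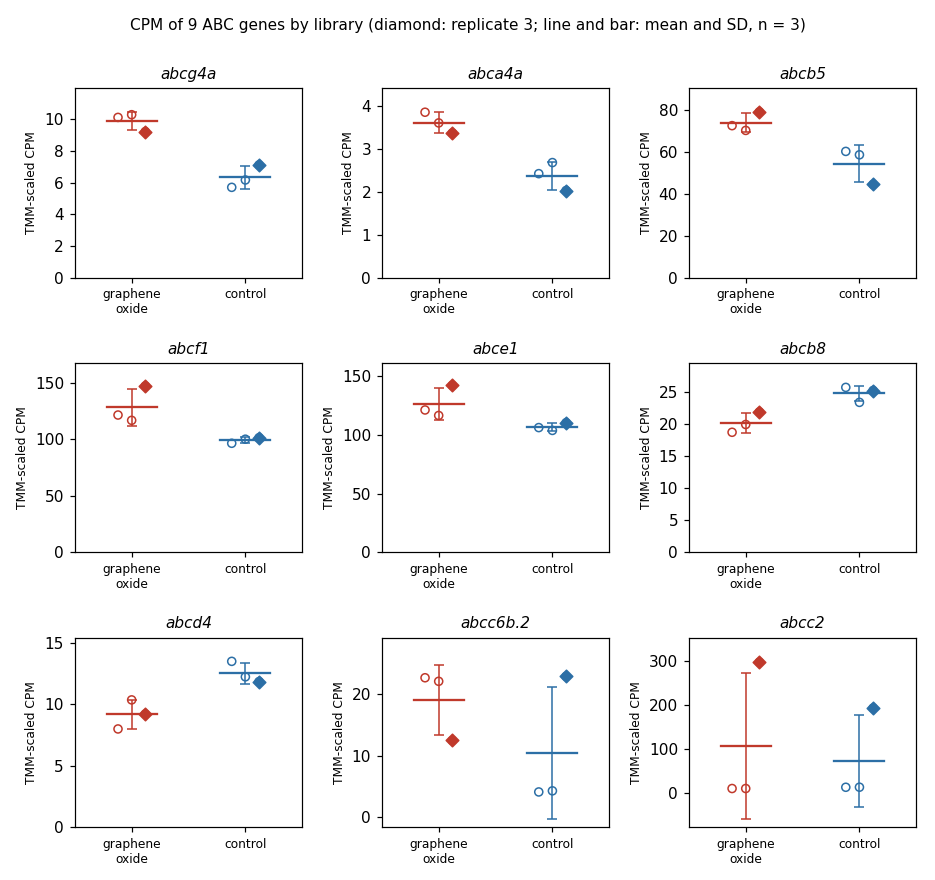
TMM-scaled CPM of 9 ABC genes in each library, GO at the left and control at the right of each panel; open circles are replicates 1 and 2, diamonds replicate 3, and the line and bar are the mean and SD of 3 libraries. The first 7 genes have groups that do not overlap, while in abcc6b.2 and abcc2 the replicate 3 library lies far from the other 2 of its group.

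Among replicates 1 and 2, with the replicate 3 libraries left out, 12 ABC genes rose and 2 fell in GO. These were 29.2% of the 48 tested, beside 24.9% of all genes. The 12 that rose were 25% of the 48, beside 12.9% of all genes, and the 2 that fell were 4.17%, beside 12% of all genes. The overall share called was therefore near that of all genes, and the split leaned to higher values. In the same fit 18 of 19 skeletal muscle markers were called lower in GO, as were 11 of 16 retina, 8 of 14 brain, 8 of 13 intestine and 14 of 17 hepatocyte markers, with 1, 1, 1, 0 and 1 called higher. The part of these tissues in the ABC calls was not tested. The spread behind these calls is that between replicates 1 and 2 of a group. A chi-square statistic of their counts was 1.56 in GO and 1.62 in control for each degree of freedom, where sampling noise alone gives 1. Both values lie above counting noise, but they do not tell technical spread from spread between fish. The labels do not say whether replicates 1 and 2 are separate fish. The p-values of this fit may measure technical spread and not the spread between fish, which was not tested. With total counts in place of TMM scaling, 15 ABC genes were called higher and 1 lower, and 66.5% of the calls among all genes were higher, beside 51.8% with TMM.

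Long transcripts were called higher more often than short ones over all genes. The median effective length implied by the deposited counts and FPKM was 3979 bases for the 48 ABC genes and 1943 bases for all genes tested. Among replicates 1 and 2 the median log2 fold change was -0.11, -0.01, 0.03 and 0.03 in length quartiles 1 to 4 of all genes, from short to long. The share called higher was 7.001%, 11.3%, 14.9% and 18.4%. The ABC genes fell 2, 4, 15 and 27 in these quartiles, and the 12 that rose fell 0, 0, 4 and 8. The part of length in the ABC result was not tested.

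**Figure D4:**
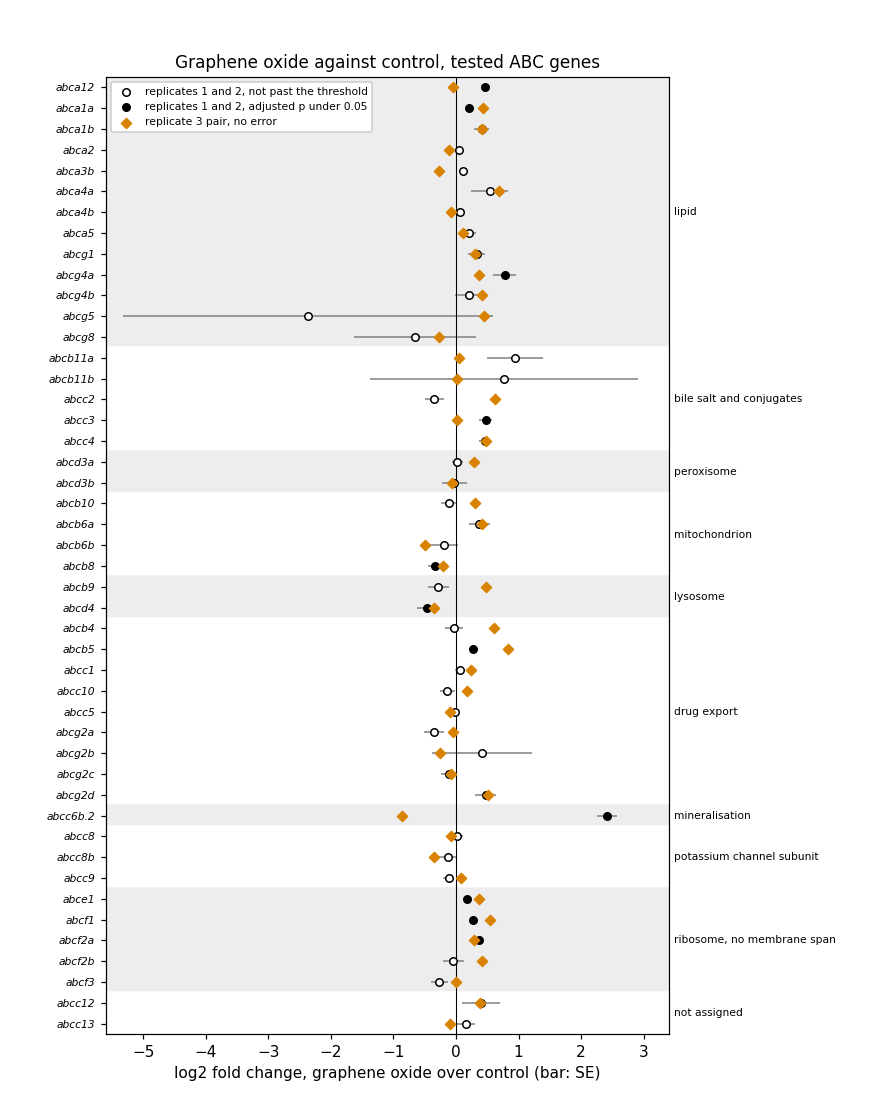
Log2 fold change of GO over control for the tested ABC genes reported here, grouped by cargo or site; circles with SE bars are the fit of replicates 1 and 2, filled where the adjusted p is under 0.05, and diamonds are the difference in the replicate 3 pair, which has no error. The gene abcc6b.2 lies at 2.41 among replicates 1 and 2 and at -0.87 in the replicate 3 pair.

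The gene abcc6b.2, grouped here under mineralisation, changed most among replicates 1 and 2, and in the opposite direction in replicate 3. Its mammalian relative releases ATP from hepatocytes and restrains calcification of soft tissue. It was at 22.7, 22.1 and 12.5 CPM in GO replicates 1, 2 and 3, against 4.09, 4.27 and 22.9 CPM in control. Among replicates 1 and 2 its log2 fold change was 2.41 ± 0.16 (SE), with an adjusted p of 1.53e-36 from edgeR, and in the replicate 3 pair the difference was -0.87. The difference between those effects was -3.29. It rests on 1 library a group in replicate 3, so the spread in its test came from replicates 1 and 2 alone. Its read-sharing neighbour abcc1, an exporter of glutathione conjugates, was at 47.4, 43.5 and 68.6 CPM in GO and 43.8, 42.8 and 58.1 CPM in control. The part of the shared reads in the values of these genes was not tested. With the counts of both genes added together the log2 fold change among replicates 1 and 2 was 0.51, with an adjusted p of 6.64e-11. The paralog abcc6a had 18 to 68 counts a library and did not pass the filter on low values.

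Of the 13 lipid transporter genes, 4 rose among replicates 1 and 2 and none fell, where 12.9% of all genes rose and 12% fell. The 4 were abcg4a, with 0.78 ± 0.18, abca12, abca1a and abca1b. The gene abca12, which in mammals loads glucosylceramide for the skin barrier, was at 94.9, 92.0 and 135 CPM in GO and 66.6, 68.2 and 139 CPM in control, a log2 fold change of 0.47 ± 0.06. Its replicate 3 libraries differed by -0.04. The difference between the effects was -0.51, which rests on 1 library a group in replicate 3. Epidermis markers were at 18110, 18200 and 13490 CPM in GO and 20850, 20670 and 19840 CPM in control, a sum lower in GO in every pair, while among replicates 1 and 2 the 16 single markers had 8 called higher and 6 called lower, with a median log2 fold change of 0.14. Their part in the abca12 values was not tested. The genes abca1a and abca1b changed by 0.20 ± 0.04 and 0.41 ± 0.12, and in the replicate 3 pair both were higher in GO by 0.42. The remaining 9 lipid genes, abcg1, abcg4b, abca4a and abca4b among them, were not past the threshold.

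Of the 5 bile salt and conjugate transporter genes, abcc3 and abcc4 rose among replicates 1 and 2, where 12.9% of all genes rose. The basolateral exporter gene abcc3 was at 31.8, 36.3 and 46.2 CPM in GO and 24.8, 24.5 and 45.7 CPM in control, a log2 fold change of 0.47 ± 0.10. The gene abcc4, an exporter of cyclic nucleotides and bile salts, was at 37.1, 35.6 and 56.6 CPM in GO and 26.0, 26.4 and 40.6 CPM in control, a log2 fold change of 0.47 ± 0.10, with 0.48 in the replicate 3 pair. The canalicular gene abcc2 had a log2 fold change of -0.35 ± 0.15 (adjusted p = 0.0745, edgeR) among replicates 1 and 2, and its replicate 3 libraries differed by 0.62. The bile salt pump gene abcb11b was too low in replicates 1 and 2 for a comparison, with 0 to 1 counts a library. Its paralog abcb11a had 7 to 23.3 counts a library, some of them shared reads. Its log2 fold change was 0.94 ± 0.45 (adjusted p = 0.115, edgeR), not past the threshold, with 0.05 in the replicate 3 pair.

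The peroxisomal paralogs abcd3a and abcd3b were not past the threshold. The gene abcd3a, which in mammals brings bile acid precursors and branched fatty acids into peroxisomes, was at 35.2, 36.1 and 92.7 CPM in GO and 36.8, 33.8 and 75.6 CPM in control. The gene abcd3b was at 5.98, 7.54 and 11.2 CPM in GO and 8.44, 5.69 and 11.7 CPM in control. In both the replicate 3 libraries were highest, which by itself makes the groups overlap, and the groups also overlapped among replicates 1 and 2.

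Among the mitochondrial genes, abcb8 passed in replicates 1 and 2, with a log2 fold change of -0.34 ± 0.12. The haem synthesis gene abcb10 was at 16.6, 14.9 and 19.4 CPM in GO and 17.2, 16.8 and 15.8 CPM in control. The porphyrin transporter paralogs abcb6a and abcb6b were at 10.7, 11.4 and 24.7 CPM and 4.78, 5.50 and 7.94 CPM in GO, against 8.23, 8.77 and 18.6 CPM and 6.33, 5.53 and 11.3 CPM in control. The genes abcb10, abcb6a and abcb6b showed no difference past the threshold.

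Of the 5 ribosome-associated genes 3 rose among replicates 1 and 2, with log2 fold changes of 0.18 ± 0.05 for abce1, 0.27 ± 0.05 for abcf1 and 0.37 ± 0.07 for abcf2a. In the replicate 3 pair they were higher by 0.37, 0.54 and 0.28. The gene abcf2a was at 77.8, 74.1 and 128 CPM in GO and 56.0, 60.9 and 105 CPM in control, and abcf2b and abcf3 were not past the threshold. The drug exporter group of 9 genes had abcb5 (log2 fold change 0.27 ± 0.07) and abcg2d (0.48 ± 0.17) higher in GO. Among all genes 12.9% were called higher in this fit, the share to set beside both groups. The gene abcg2d was at 10.1, 12.02 and 7.30 CPM in GO and 7.71, 8.22 and 5.08 CPM in control. The lysosomal vitamin B12 gene abcd4 had a log2 fold change of -0.47 ± 0.16.

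Summed over their genes, the drug exporters were at 591, 591 and 591 CPM in GO replicates 1, 2 and 3 and 589, 581 and 534 CPM in control. Single genes were less level than the sum. In replicate 3 of both groups abcc5 was lower than in replicates 1 and 2, while abcb4, abcg2a and abcc1 were higher. The largest single part of that sum was abcc5, at 404, 409 and 273 CPM in GO and 415, 408 and 291 CPM in control. The 3 genes related to sulfonylurea receptors, abcc8, abcc8b and abcc9, which are subunits of potassium channels and carry no cargo, summed to 88.2, 78.6 and 72.8 CPM in GO and 87.6, 86.2 and 73.8 CPM in control. None of the 3 passed the threshold. Of the 3 genes given no cargo here, abcc12 and abcc13 were tested and did not pass, and abcb3l1 had 1 to 4 counts a library. The reference gene table names abcb3l1 as tap2a.

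Some of these calls depended on the tool. DESeq2 did not call abca1b, abcb5, abcb8, abcd4, abce1 and abcg2d, and limma on log2(FPKM + 1) did not call abca12, abca1a, abca1b, abcb5, abcb8, abcc3 and abcd4, so neither tool called a lower ABC gene. The calls among replicates 1 and 2 that held in every fit without 1 of the 4 libraries were those of 9 genes. The other 5 ended in some of them: abca1b without GO replicate 2 (0.34) or control replicate 1 (0.26), abcb8 without GO replicate 1 (-0.30), GO replicate 2 (-0.38) or control replicate 1 (-0.27), abcd4 without GO replicate 1 (-0.31) or control replicate 1 (-0.41), abce1 without GO replicate 1 (0.15) or control replicate 2 (0.16), and abcg2d without GO replicate 2 (0.34), control replicate 1 (0.44) or control replicate 2 (0.53).

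Other genes of the pathways in which these transporters work were counted in the same fit of replicates 1 and 2. In that fit 12.9% of all genes tested were called higher and 12% lower. Of 14 tested bile acid synthesis and transport genes 0 rose and 5 fell, with a median log2 fold change of -0.86. The ileal bile acid uptake gene slc10a2 was at 1.56, 2.20 and 22.6 CPM in GO and 5.28, 4.43 and 14.1 CPM in control. Of 19 cholesterol efflux and lipoprotein genes 5 rose and 6 fell, among them the lipid synthesis regulator gene srebf1, at 41.4, 42.8 and 66.6 CPM in GO and 26.1, 27.1 and 44.1 CPM in control. The apolipoprotein gene apoa1b, whose product accepts lipid from Abca1, was at 63.8, 63.0 and 3315 CPM in GO and 218, 231 and 2849 CPM in control. In the same fit 14 of 17 tested hepatocyte markers were called lower and 1 higher, and 8 of 13 intestine markers were called lower and 0 higher. The part of these tissues in the pathway counts was not tested.

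Of 28 peroxisome biogenesis and beta-oxidation genes 0 rose and 3 fell, and of 23 mitochondrial haem and iron-sulfur genes 3 rose and 2 fell. Among all genes in this fit 12.9% rose and 12% fell. The haem synthesis gene alas2 was at 17.4, 16.9 and 45.3 CPM in GO and 11.6, 12.5 and 27.9 CPM in control, and the iron-sulfur assembly gene isca2 at 15.2, 12.6 and 12.6 CPM in GO and 26.4, 19.1 and 17.6 CPM in control. Of 20 genes of xenobiotic sensing and conjugation 9 rose and 2 fell. The glutathione transferase gene gstp1 was at 447, 436 and 637 CPM in GO and 263, 247 and 485 CPM in control. Its counts were not whole in 2 libraries, so they include reads shared with another gene. Over all 6 libraries no gene of these lists passed the threshold in edgeR.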

How the data were processed

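RNA sequencing tables of 3 GO and 3 control libraries were used, with groups and replicate numbers from the titles. The deposited expected counts are estimates with fractional values in some rows, and the deposited TPM and FPKM are normalized for length and depth per the file headers. Per the submitters' processing notes, Bowtie2 2.3.2 and the GRCz11 assembly were used; neither the program that counted reads nor its strand setting is stated in the sources used here. Close paralogs, overlapping and antisense genes are therefore uncertain.

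Rows were summed by gene ID. All 50 ABC gene IDs were found in the reference gene table, which follows GRCz12tu, a different build, so it gave only names and neighbours. Counts were rounded and tested with edgeR 4.0.16 (quasi-likelihood, TMM scaling) in R 4.3.3 on the 19313 genes with a mean FPKM of at least 1, with Benjamini-Hochberg adjustment over all of them and a threshold of 0.05; 48 ABC genes passed this filter, and abcb3l1 and abcc6a did not. Of the 48, 8 passed only through the replicate 3 libraries. The fits covered all 6 libraries, replicates 1 and 2 alone, and the interaction of group with replicate 3, whose libraries were assumed to vary like the others. The SE of an edgeR log2 fold change was derived from its test, as the size of the change divided by the square root of the F statistic. Pair differences used log2 CPM with a prior count of 2. Wilson intervals and the floor of 3 counts cover counting error only. Alternatives used DESeq2 1.42.0 and limma 3.58.1. The edgeR fits of all 6 libraries and of replicates 1 and 2 were also run on simulated counts. Those counts held no replicate 3 split, so the runs do not bear on it, and no result here rests on them.

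Same-numbered libraries deviated together from their group means (correlations 0.73, 0.75 and 0.87), but replicates 1 and 2 correlated across numbers as highly (0.74 and 0.72), and among replicates 1 and 2 alone the correlation was 0.02. The fits reported have no replicate block, and a fit with it was an alternative. The genes, lists and tests were chosen with earlier results of these data known. Values are given for ABC genes named in a fixed list of transporters of each cargo, the 6 with the smallest p over all libraries, those called among replicates 1 and 2 with a log2 change of at least 0.58, the 6 highest in TPM and the 6 with the highest replicate 3 ratio; abca2, abcb9, abcc1, abcc3, abcc4, abcg2a, abcg2d and abcg4b were added after their values were seen. That list also held abcc6b.1 and abcd2, not analysed here, and 2 further ABC genes enter the counts and sums but are not reported here by name. From each pathway list at most 2 called genes in each direction were named.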

Additional observations from a re-analysis of the deposited data

Results flagged for a closer look

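The effect of GO differed between the replicate 3 pair and replicates 1 and 2, by edgeR's test of the difference, for 10 of the 48 tested ABC genes, 20.8% beside 14.2% of all genes. The differences below are on the log2 scale, replicate 3 pair minus replicates 1 and 2, and rest on 1 library a group in replicate 3. They were -3.29 for abcc6b.2, -0.51 for abca12, -0.46 for abcc3 and -0.37 for abca3b. They were 0.97 for abcc2, 0.78 for abcb9, 0.64 for abcb4, 0.57 for abcb5, 0.26 for abcf1 and 0.22 for abca1a. The conjugate exporter gene abcc2 and the drug exporter gene abcb4 were among those at a high level in replicate 3. They were at 298 and 85.1 CPM in GO and 193 and 55.7 CPM in control. For abcb9, a lysosomal peptide transporter gene, the CPM was 8.10, 9.35 and 16.0 in GO replicates 1, 2 and 3 and 9.50, 11.6 and 11.4 in control. Without GO replicate 2, 5 ABC genes differed instead of 10.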

How the results depend on the processing

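Over all 6 libraries 0 ABC genes were called under each of the alternatives run, including the fits without 1 library. DESeq2 called 10 of all genes, none of them ABC genes. With the replicate block edgeR called 0 ABC genes and 0 of all genes, and the smallest adjusted p of an ABC gene was 0.218. Among replicates 1 and 2 the block gave 13 higher and 2 lower, beside 4892 of all genes called, 2531 of them higher. It added abca3b (log2 fold change 0.11), which total-count scaling also called (0.16). There DESeq2 called 8 ABC genes (8 higher, 0 lower) and 2047 of all genes, and limma on log2(FPKM + 1) called 7 (7 higher, 0 lower) and 2468 of all genes; its value for abcc6b.2 was 1.57 in place of 2.41. Total-count scaling, added after seeing the data, gave 1 lower. The 5 genes abcc4, abcc6b.2, abcf1, abcf2a and abcg4a were called under every alternative run for replicates 1 and 2. Fits without 1 library gave 0 to 2 lower, 10 to 11 higher, 11 to 12 called ABC genes and 3041 to 3855 of all genes, the fewest without GO replicate 2. For the difference of effects they gave 5 to 9 ABC genes, 2 to 5 of them positive, and 1780 to 2594 of all genes. The cause of these moves was not tested. Genes with few counts, such as abcb11b and abcg5 in replicates 1 and 2, could not show a difference at this depth.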
